A study of Rattus norvegicus with 8 samples.

Results

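Selenoprotein P (*Selenop*) and 7 other selenoprotein genes that encode neither a glutathione peroxidase nor a thioredoxin reductase (*Selenos*, *Selenow*, *Selenok*, *Selenof*, *Selenot*, *Selenom* and *Sephs2*) were followed in rat intestinal epithelium. They were chosen by name, through the probe sets annotated to them under current or older symbols. The 8 genes hold 10 of the 31099 probe sets on the Affymetrix rat array used (Rat230_2), and they are 8 of the 14217 genes with a probe set of their own. 7 of them were bright enough to be tested, among 9258 tested genes. *Selenow* was not.

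All animals were Wistar rats of 4 months, described as female in the study's methods. Tap water (TW), deep-sea water with a labelled hardness of 1200 (DSW1200) and selenium water (SeW) were each drunk for 3 days, and the last group was kept under water restriction (WR) for 12 h. SeW was sodium selenite in distilled water by the study's methods, so it differed from TW in the base water as well as in selenium, and WR differed from the other groups in duration. Each of the 4 groups has 2 arrays of total RNA from epithelial cells shaken loose from proximal segments of the small intestine. The labels number the arrays 1 and 2 without naming separate animals, so each p-value measures only the spread between these arrays, which may be technical.

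A selenoprotein holds selenocysteine, an amino acid inserted at a UGA codon that would otherwise end translation. The insertion needs a hairpin in the mRNA (the SECIS element) and a dedicated tRNA. When selenium is scarce, the mRNAs of some selenoproteins are lost before those of others, an order known as the selenoprotein hierarchy. Selenoprotein P is secreted, mostly by the liver, carries many selenocysteines and takes selenium to other organs. Selenoproteins S, K, F, T and M belong to the endoplasmic reticulum (ER), selenoprotein W is a small cytosolic thioredoxin-like protein, and *Sephs2* encodes the enzyme that makes selenophosphate, the selenium donor for selenocysteine.

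On the GRCr8 build, RefSeq places *Selenop* at chr2:54225736-54236022, *Selenof* at chr2:236302439-236335216 and *Selenot* at chr2:144954324-144971375. *Selenos* lies at chr1:129070240-129080007, *Selenow* at chr1:85727631-85732703 and *Sephs2* at chr1:191323637-191325955, the last 2 on the minus strand. *Selenok* lies at chr16:5158601-5167183 and *Selenom* at chr14:82619453-82622056. RefSeq promoter windows on that build, from 250 bases before to 50 bases after a gene start, were found for 8 of 8 genes. *Selenop* has 2 annotated starts, which makes 9 windows. Short stretches of 4 genes are shown as examples, each printed 5′ to 3′ on the strand of its gene with the matched letters in capitals. Matches in *Selenow*, *Selenot* and *Selenof*, and further CCAAT matches in *Selenos* and *Selenok*, lie outside the stretches shown.
*Selenop*, chr2:54225864-54225893, plus strand, from base -48 to -19 before the second start at 54225912, within the span annotated from the first: gcgagGTAAACAagagggcTATAAAtgtca
*Selenos*, chr1:129070110-129070239, plus strand, the 130 bases before the start: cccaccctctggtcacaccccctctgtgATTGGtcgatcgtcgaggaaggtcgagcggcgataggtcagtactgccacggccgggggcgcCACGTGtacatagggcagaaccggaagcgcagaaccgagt
*Sephs2*, chr1:191325956-191326015, minus strand, the 60 bases before the start: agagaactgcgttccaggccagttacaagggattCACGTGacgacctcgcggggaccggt
*Selenok*, chr16:5158461-5158521, plus strand, from base -140 to -80: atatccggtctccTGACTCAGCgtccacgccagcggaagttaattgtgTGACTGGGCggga

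Capitals in the *Selenop* stretch mark GTAAACA, a fork-head box present on either strand in 3.78% of 33469 rat windows of this length, and the TATA box TATAAA, present in 14.2%. In *Selenos* they mark ATTGG, which is CCAAT read on the other strand (CCAAT was in 37.5% of windows), and the E-box CACGTG (6.42%), which *Sephs2* also holds. The 2 marked runs in *Selenok* match TGACNNNGC, the core of the antioxidant response element, which was found in 12.1% of windows. Of the 9 windows, 1 held the fork-head box, 3 the TATA box, 2 the E-box, 1 the antioxidant response element and 3 the CCAAT box. No marked motif overlapped another, and both strands were searched. These matches are letters in a window and say nothing of binding.

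Before any comparison, the arrays themselves differed. The median deposited signal ran from 4.3 (TW replicate 2) to 11.1 (SeW replicate 1). All levels below are therefore MAS5 signals, the linear intensity that Affymetrix software computes for a probe set, after quantile normalization across the 8 arrays. The 3'/5' signal ratio of beta-actin, which rises when RNA is degraded or copied short, was 10.9 to 13.6 on the SeW arrays and 20.6 to 32.8 on the other arrays. TW replicate 2 had the lowest correlation with the arrays of other groups (r = 0.907, against 0.920 or more for the other 7). The 12 enterocyte markers with a probe set summed to 39220 to 45110 in TW, WR and DSW1200 and to 48430 and 50770 in SeW, with *Fabp1* and *Apoa1* the brightest, and none was at the floor on any array. In such bulk samples, fewer cells of a type and less RNA per cell cannot be told apart.

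None of the 7 tested genes passed an adjusted p of 0.05 by limma in any of the 6 pairwise comparisons or in the F test among the 4 groups. Over all tested genes the same rule called 0.0108% for WR against TW, 0% for DSW1200 against TW, 1.91% for SeW against TW, 2.72% for SeW against DSW1200, 1.23% for SeW against WR, 0% for DSW1200 against WR and 0.616% in the F test. At an unadjusted p under 0.05, 1 of the 7 stood out in SeW against TW and 1 in SeW against DSW1200, *Selenos* both times, where 19.6% and 20.0% of all genes did. No member did so in WR against TW (9.70% of all genes), DSW1200 against TW (7.92%), SeW against WR (16.5%), DSW1200 against WR (5.84%) or the F test (17.6%). After normalization, no member reached the 2-fold change that the study's methods use as a criterion. Against TW, 4.80% of all genes reached it in WR, 4.26% in DSW1200 and 6.80% in SeW. It was 6.20% in SeW against DSW1200, 5.07% in SeW against WR and 3.31% in DSW1200 against WR. As deposited, *Selenos*, *Selenop* and *Selenof* exceeded it in SeW against TW, where the median gene rose by 0.92 on the log2 scale. *Selenos* and *Selenof* did so against DSW1200 (median gene 0.84). The study's PCR table lists *Selenop* (as *Sepp1*) up more than 2-fold against TW in DSW1200 and SeW. It lists *Selenos* (as *Sels*) down more than 2-fold in SeW, opposite to the array.

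**Figure D1:**
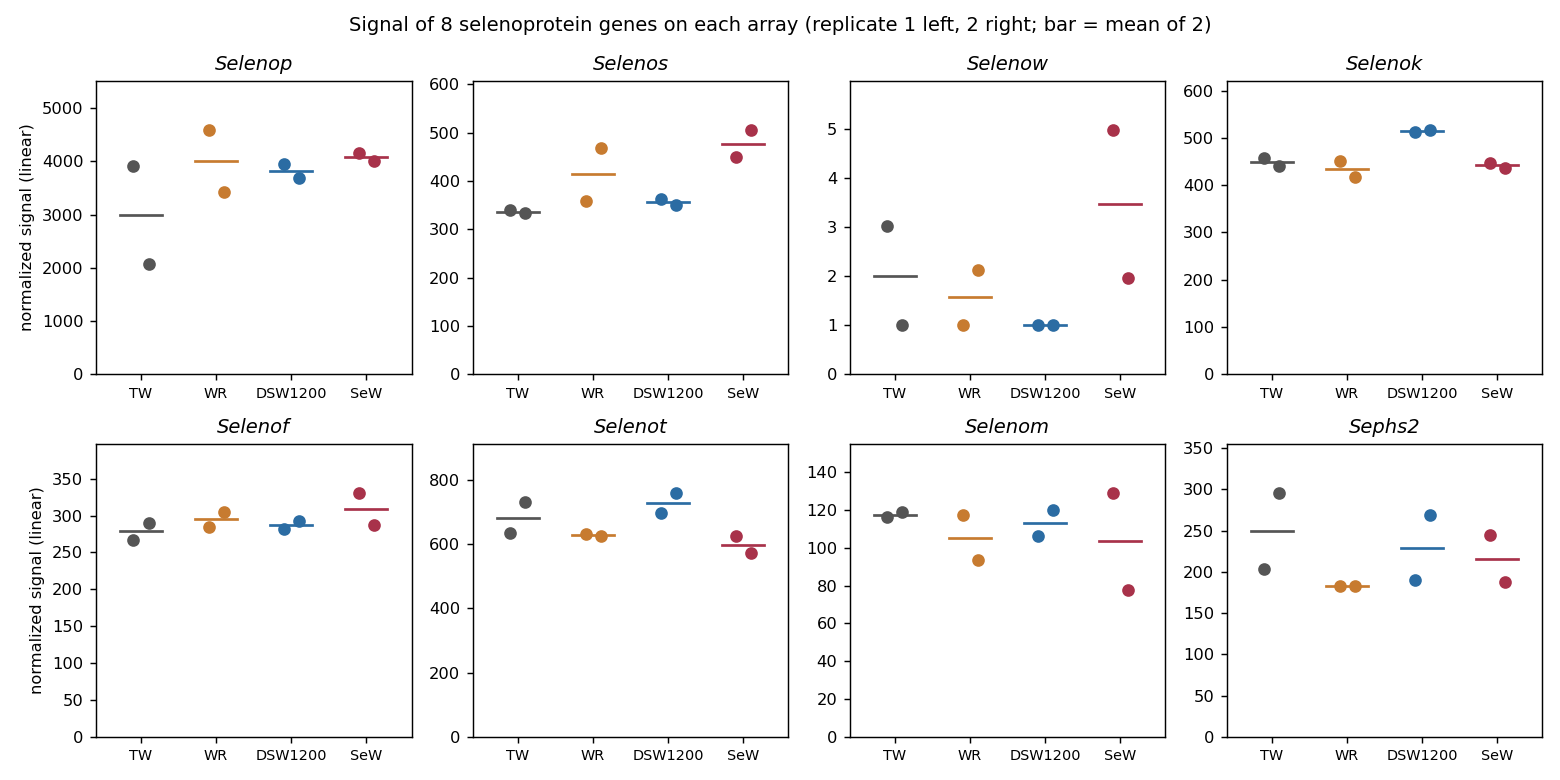
Quantile-normalized signal (linear axis from 0) of the 8 selenoprotein genes on each of the 8 arrays, by group, with replicate 1 at the left, replicate 2 at the right and a bar at the mean of the 2. The *Selenop* point at 2078 is TW replicate 2, the *Selenos* points are highest in SeW and WR replicate 2, and the *Selenow* points all lie under 5.

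*Selenop* mRNA, read by probe set 1368806_at, gave signals of 3907 and 2078 for TW. WR gave 4592 and 3433, DSW1200 gave 3955 and 3680, and SeW gave 4163 and 4005. The SeW arrays lay above both TW arrays, whereas WR and DSW1200 overlapped with TW. By mean (± SD, n = 2 each), SeW came first with 4084 ± 111, then WR with 4012 ± 820, DSW1200 with 3818 ± 195 and TW with 2992 ± 1293. No neighbours in that order differed beyond their spread (adjusted p 0.954, 0.988 and 0.657 down the order).

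On the log2 scale, *Selenop* lay 0.52 above TW in SeW (SE 0.25, 95% confidence interval -0.05 to 1.09, adjusted p 0.293). The difference was 0.48 in WR (interval -0.09 to 1.05, adjusted p 0.556) and 0.42 in DSW1200 (interval -0.15 to 0.99, adjusted p 0.657). These 3 differences share the same TW arrays. Between SeW and DSW1200, *Selenop* differed by 0.10 (interval -0.47 to 0.67, adjusted p 0.871), although the 2 SeW arrays were both above the 2 DSW1200 arrays. With each array scaled to a common median instead, that difference turned to -0.24.

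The size of each difference from TW moved with a single TW array. The TW arrays were 0.91 apart on the log2 scale, more than the 0.52 between the highest and lowest group means of *Selenop*, and 12.4% of tested genes had a TW gap at least as wide (median gap 0.33). Without TW replicate 1, *Selenop* lay 0.97 above the remaining TW array in SeW (adjusted p 0.0245) and 0.93 above it in WR (adjusted p 0.0374), and its F test passed too (adjusted p 0.0467). With that array left out, 5.70%, 2.30% and 4.24% of all genes passed in those 3 tests. DSW1200 stood 0.87 above TW replicate 2 (adjusted p 0.0530). Without TW replicate 2 the same 3 differences were 0.055 in SeW, 0.02 in WR and -0.04 in DSW1200.

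Markers of other cells were read on the same arrays. The 7 fibroblast markers summed to 339 and 174 in TW, so they too were lowest on TW replicate 2, and to 212 to 446 on the other 6 arrays. The sums of smooth muscle (51.6) and pancreatic acinar markers (41.8) were lowest on that array as well, and those of the remaining lists on other arrays. The 14 myeloid markers summed to 2767 and 4524 for DSW1200, 3420 and 5015 for WR, 4055 and 4076 for SeW and 4142 and 4190 for TW, with *Cd74* and *RT1-Da* the brightest. Of the 12 that were tested, 8 were lower in mean in SeW than in TW (median -0.23) and 10 were lower than in DSW1200 (median -0.57). Against WR 11 were lower (median -0.76), where the median of all genes was -0.04 in each of these comparisons. As lower 2 passed, both against WR (1.23% of all genes passed there in either direction). The 7 hepatocyte markers, from the cell type best known for selenoprotein P, summed to 110 and 65.3 in TW and to 35.1 to 80.6 elsewhere, with 2 of the 7 bright enough to be tested. The part of these cells in the *Selenop* values was not tested.

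The second *Selenop* probe set, 1387339_at, was near the dim end of the array. DSW1200 gave 18.0 and 8.19, WR 12.9 and 6.34, TW 9.70 and 7.44, and SeW 6.91 and 10.4. Its group means differed from TW by 0.09, 0.51 and -0.002 on the log2 scale in WR, DSW1200 and SeW, and its r with the brighter probe set was 0.42 over the 8 arrays. In every group at least 1 array lay close to 6.69, the level that a gene had to exceed on average to be tested. The lowest, WR replicate 2, was under it. DSW1200 replicate 2 lay between the 2 TW arrays, so the DSW1200 difference rests on replicate 1.

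The 5 tested genes whose pattern over the 8 arrays was most like that of *Selenop* were *Amhr2* (r = 0.98), *Tmem87b* (0.98), *Xdh* (0.97), *Mtfr1* (0.97) and *Orc4* (0.97). Each of the 5 was lowest on TW replicate 2: *Xdh*, which encodes xanthine dehydrogenase, read 4005 and 2625 in TW and 3570 to 4032 elsewhere. Of 9257 other genes, 73 had an r above 0.9 with *Selenop*. These r values come from 8 shared arrays and are descriptions.

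*Selenos* encodes an ER membrane protein that joins the complex drawing misfolded proteins out of the ER for degradation. Its TW signals were 339 and 334. Those of SeW were 449 and 506, those of WR 359 and 468, and those of DSW1200 363 and 349. Both SeW arrays were above every TW and DSW1200 array, and WR replicate 2 lay between the 2 SeW arrays. SeW exceeded TW by 0.50 on the log2 scale (SE 0.17, interval 0.12 to 0.88, unadjusted p 0.0144, adjusted p 0.148 by limma) and DSW1200 by 0.42 (interval 0.04 to 0.80, adjusted p 0.204). The adjusted values did not pass.

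The other 4 *Selenos* differences were smaller. WR stood 0.29 above TW (interval -0.09 to 0.66, adjusted p 0.588) without overlap, and DSW1200 stood 0.08 above TW (interval -0.30 to 0.46, adjusted p 0.896), also without overlap, where the TW arrays were 0.02 apart. SeW against WR gave 0.22 (adjusted p 0.579) and DSW1200 against WR -0.20 (adjusted p 0.937), both with overlapping arrays. Leaving out any 1 array moved SeW against TW between 0.41 and 0.59, with adjusted p from 0.162 to 0.541. With the beta-actin ratio as a covariate, it was 0.66 (SE 0.44, adjusted p 0.702 by limma). That ratio was lowest on the SeW arrays, so RNA state and selenium water cannot be told apart by this fit.

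By sum, lymphocyte markers were lowest on the SeW arrays. The 8 lymphocyte markers summed to 254 and 241 in SeW and to 293 to 500 on the other 6 arrays. Of the 5 that were tested, 5 were lower in mean in SeW than in TW (median -0.34), DSW1200 (median -1.18) and WR (median -1.10). Passing as lower were 2 against DSW1200 (2.72% of all genes passed in either direction), 2 against WR (1.23%) and 0 against TW (1.91%). Against TW 2 had an unadjusted p under 0.05 (19.6% of all genes), and 2 passed the F test (0.616%). Enterocyte markers went the other way. Of the 12 tested, 10 were higher in mean in SeW than in TW (46.5% of all genes were), 11 than in DSW1200 (46.9%) and 12 than in WR (46.3%). As higher 1 passed, against WR. The part of either cell type in the SeW values of *Selenos*, and of *Gpx2* further on, was not tested.

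**Figure D2:**
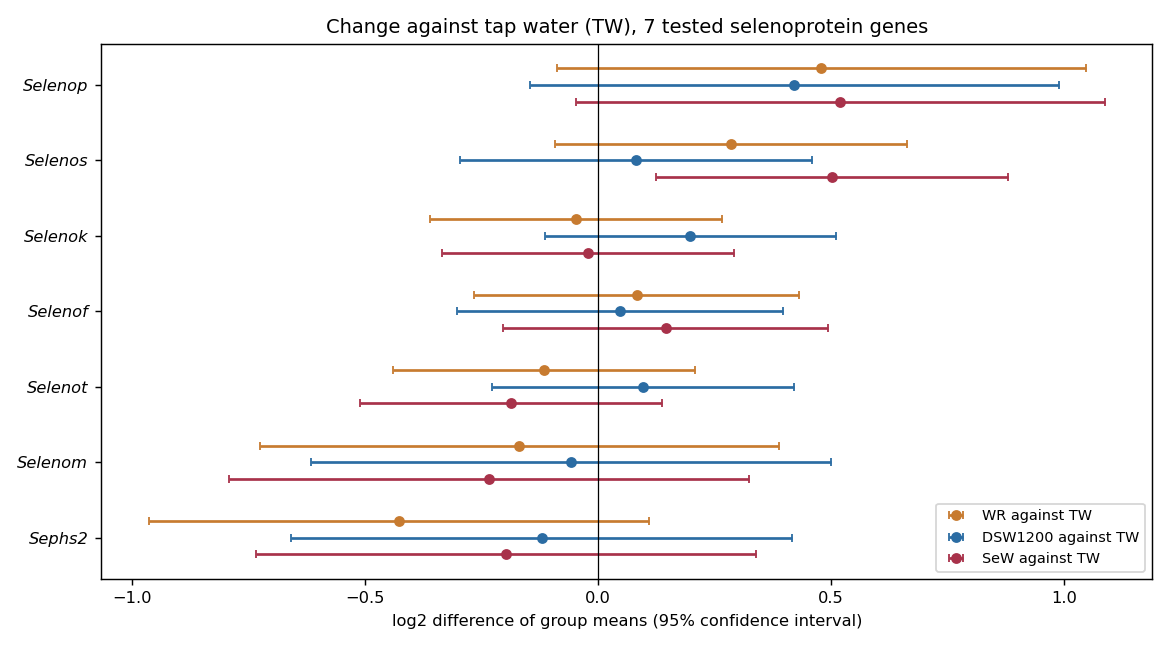
Log2 differences from TW for the 7 tested genes in WR, DSW1200 and SeW, with 95% confidence intervals from limma (horizontal axis, log2 units; 2 arrays a group). Every interval crosses 0 except *Selenos* in SeW (0.12 to 0.88), which had an adjusted p of 0.148.

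*Selenok*, an ER membrane selenoprotein that supports protein palmitoylation, gave 512 and 517 for DSW1200. The TW signals were 457 and 440.5, the SeW signals 448 and 436, and the WR signals 452 and 418. The 2 DSW1200 arrays were above the other 6. DSW1200 exceeded TW by 0.20 (interval -0.11 to 0.51, adjusted p 0.682), WR by 0.25 (adjusted p 0.903) and SeW by 0.22 (interval for SeW minus DSW1200 -0.53 to 0.09, adjusted p 0.418). SeW and WR lay within -0.02 and -0.05 of TW (adjusted p 0.952 and 0.936).

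*Selenot* encodes a thioredoxin-like protein of the ER membrane. For SeW it read 623 and 571, for WR 630.2 and 623, for TW 634 and 729, and for DSW1200 695 and 760. The SeW and WR arrays lay under all TW and DSW1200 arrays. SeW minus DSW1200 was -0.28 (interval -0.61 to 0.04, unadjusted p 0.0796, adjusted p 0.313) and SeW minus TW -0.19 (interval -0.51 to 0.14, adjusted p 0.517). A second *Selenot* probe set, 1373508_at, averaged 135 ± 1.15 for SeW, 152 ± 2.74 for WR, 171 ± 31.0 for DSW1200 and 174 ± 36.7 for TW (SD, n = 2 each). It gave -0.33 and -0.35 for the same 2 differences, and the 2 probe sets had an r of 0.87. They differed in sign for DSW1200 minus TW, at 0.10 and -0.02.

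*Selenof* and *Selenom* are thioredoxin-fold proteins of the ER lumen, and the first binds the enzyme that re-glucosylates misfolded glycoproteins. *Selenof* gave 331 and 286 for SeW, 285 and 305 for WR, 282 and 293 for DSW1200 and 267 and 290.3 for TW. All 6 pairs of groups overlapped, and its differences from TW ran from 0.05 to 0.15 (adjusted p 0.657 to 0.935). *Selenom* gave 129 and 77.4 for SeW, 117 and 93.3 for WR, 106 and 120.0 for DSW1200 and 116 and 119 for TW. The highest and the lowest *Selenom* value were thus both in SeW, 0.74 apart on the log2 scale, and its differences from TW of -0.17 in WR, -0.06 in DSW1200 and -0.23 in SeW were all smaller than that (adjusted p 0.841, 0.950 and 0.654).

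*Sephs2*, whose product is itself a selenoprotein, gave 182 and 183 for WR. TW gave 204 and 296, DSW1200 189.6 and 269, and SeW 244 and 188. The WR arrays were the lowest 2 of the 8. WR minus TW was -0.43 (interval -0.96 to 0.11, unadjusted p 0.107, adjusted p 0.573), DSW1200 minus TW -0.12 (adjusted p 0.892) and SeW minus TW -0.20 (interval -0.74 to 0.34, adjusted p 0.698). The gap between the 2 TW arrays, 0.54, was wider than any of these.

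*Selenow* (probe set 1367593_at) gave 4.97 and 1.96 for SeW, 3.01 and 1.00 for TW, 1.00 and 2.12 for WR and 1.00 on both arrays for DSW1200, where 1 is the floor set before taking logs. The highest value lay in SeW, but all 8 were under 6.69, the level that a gene had to exceed on average to be tested. No fold change is given for it.

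Set against all tested genes, the 7 did not share a direction. In SeW against TW 3 were higher (46.5% of all genes were) and 4 lower in mean, with a median difference of -0.02 (all genes -0.04), and 3 of 7 had arrays that did not overlap where 51.2% of all genes did. In WR against TW it was 3 higher (48.9%) and 4 lower (median -0.05, all genes -0.01) with 3 of 7 not overlapping (39.7% of all genes). In DSW1200 against TW 5 were higher (47.6%) and 2 lower (median 0.08, all genes -0.02) with 2 of 7 not overlapping (35.9%). Among the pairs without TW, 3 of 7 were higher in SeW than in DSW1200 (46.9% of all genes), 5 in SeW than in WR (46.3%) and 4 in DSW1200 than in WR (49.4%). In these pairs 4 of 7 did not overlap in SeW against DSW1200 (53.9% of all genes), 1 of 7 in SeW against WR (54.2%) and 3 of 7 in DSW1200 against WR (35.6%). Across the 8 arrays the closest pairs were *Selenot* with *Sephs2* (r = 0.69) and *Selenok* with *Selenot* (0.66), and the most opposed were *Selenos* with *Selenot* (-0.74). *Selenop* and *Selenos* had an r of 0.30.

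The scale of the arrays bears on SeW most. With the signals taken as deposited, the median gene stood 0.92 above TW in SeW on the log2 scale, and 6 of the 7 genes (all but *Selenom*) passed in SeW against TW as 47.3% of all genes did. Of the 7, *Selenos* was at 1.45 (adjusted p 0.00173) and *Selenop* at 1.08 (adjusted p 0.0145). Relative to the median gene, those 2 values became 0.53 and 0.165, *Selenof* came to 0.19, *Selenok* to 0.01, and *Selenot*, *Sephs2* and *Selenom* to -0.13, -0.165 and -0.19. Against DSW1200, 5 of the 7 passed as deposited (40.4% of all genes), and against WR *Selenos* did (0.86, adjusted p 0.0388, where 10.5% of all genes passed). In the F test 3 passed (29.9% of all genes).

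**Figure D3:**
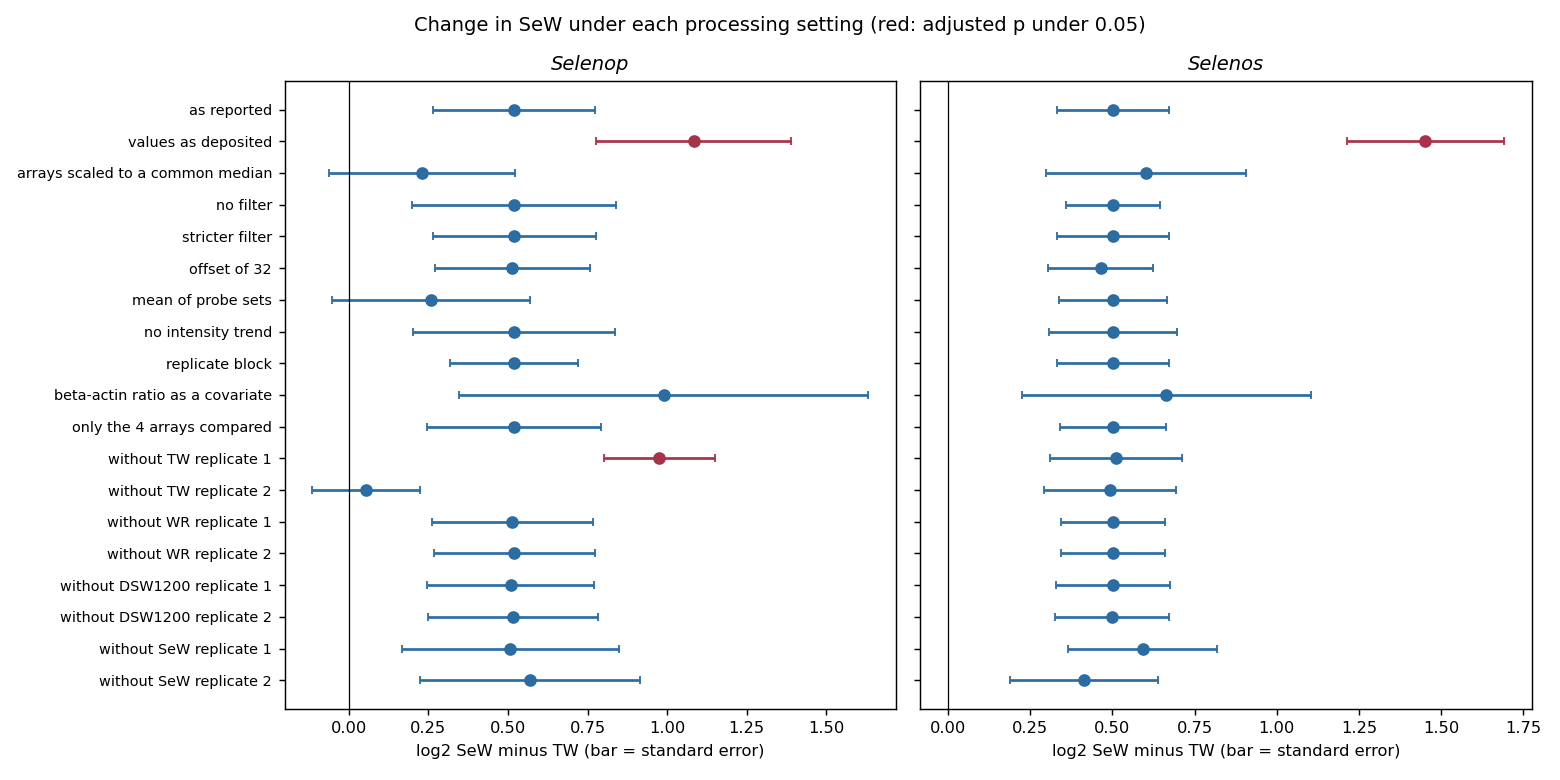
Log2 difference between SeW and TW (horizontal axis, with standard error) for *Selenop* and *Selenos* under the reported setting and each alternative, in red where the adjusted p was under 0.05. *Selenop* moves between 0.055 and 1.08, *Selenos* between 0.41 and 1.45, and the red points are those of the values as deposited and, for *Selenop*, of TW replicate 1 left out.

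The remaining selenoproteins were taken as a list of 16 genes, of which 11 were tested. *Gpx2*, the gastrointestinal glutathione peroxidase, was the one that passed. It did so in SeW against TW (1.91% of all genes passed), DSW1200 (2.72%) and WR (1.23%), and in the F test (0.616%). SeW gave 896 and 872, TW 1755 and 2520, DSW1200 2102 and 1768, and WR 1737 and 1620, so both SeW arrays were under the other 6. Its SeW differences were -1.25 against TW (SE 0.18, adjusted p 0.0163), -1.12 against DSW1200 (adjusted p 0.0198) and -0.92 against WR (adjusted p 0.0479). It was lower in SeW in 18 of 18 alternative settings for each pair, and passed in 10, 8 and 5 of them. The size moved from -1.49 to -0.42 against TW (adjusted p by limma up to 0.507). It moved from -1.39 to -0.32 against DSW1200 (adjusted p up to 0.953) and from -1.11 to -0.29 against WR (adjusted p up to 0.979). *Gpx4*, which reduces lipid peroxides in membranes, was at 979 ± 11.3 in SeW and 1595 ± 337 in TW (-0.69, adjusted p 0.0786). In SeW against TW, 8 of the 11 were lower in mean and 3 higher (46.5% of all genes were higher), with a median of -0.20 (all genes -0.04). In WR against TW and DSW1200 against TW 0 of 11 passed (0.0108% and 0% of all genes). *Txnrd1*, the cytosolic thioredoxin reductase, was at 380 ± 70.5 in WR and 614 ± 91.2 in TW (-0.70, adjusted p 0.400), and *Selenon*, an ER selenoprotein of calcium handling, at 26.9 ± 8.10 and 10.97 ± 1.64 (1.27, adjusted p 0.446).

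**Figure D4:**
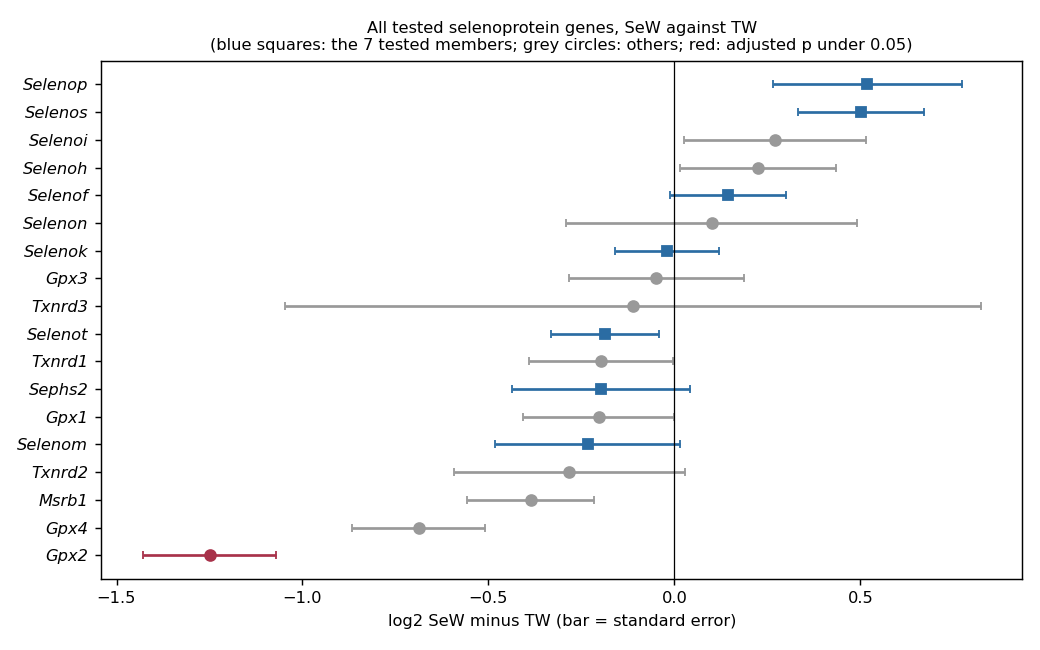
Log2 difference between SeW and TW (horizontal axis, with standard error) for all 18 tested selenoprotein genes, with the 7 described here as blue squares and the other 11 as circles. *Selenop* (0.52) and *Selenos* (0.50) have the highest values, *Gpx4* (-0.69) and *Gpx2* (-1.25) the lowest, and *Gpx2*, in red, is the gene with an adjusted p under 0.05.

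Genes that make selenocysteine and insert it were a list of 13, of which 12 were tested. In any comparison 0 passed, where at most 2.72% of all genes did. In SeW against TW, 10 of the 12 were lower in mean and 2 higher (46.5% of all genes were higher), with a median of -0.21 (all genes -0.04). An unadjusted p under 0.05 was found for 4 of the 12 (19.6% of all genes). *Secisbp2l*, a relative of the SECIS-binding protein, read 119 and 170 in SeW and 75.2 and 94.5 in TW (0.75, adjusted p 0.113), and *Sepsecs*, the enzyme that completes selenocysteine on its tRNA, 79.2 and 76.3 against 101 and 104 (-0.40, adjusted p 0.237). *Trit1*, which modifies that tRNA, lay at -0.74 (adjusted p 0.197), and *Ncl*, or nucleolin, at 0.64 in WR against TW (adjusted p 0.465).

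Genes of selenium uptake, carriage and small-molecule metabolism were a list of 12, of which 7 were tested. In any comparison 0 passed, where at most 2.72% of all genes did. *Tpmt*, a methyltransferase, was at 130.5 ± 4.35 in SeW, 76.8 ± 13.5 in TW and 71.5 ± 12.1 in DSW1200 (0.78 and 0.88, adjusted p 0.0818 and 0.0554). It was also high in WR, at 112.6 ± 7.45, where SeW minus WR was 0.21 (adjusted p 0.662) and WR minus TW 0.56 (adjusted p 0.477). *Cth*, which cleaves cystathionine and its selenium analogue, read 204 and 205 in SeW and 172 and 98.3 in TW (0.65, adjusted p 0.201). The anion exchanger *Slc26a3* read 1978 and 1668 in SeW, 1654 on both arrays in DSW1200 and 1331 and 723 in TW. SeW minus TW was 0.89 (SE 0.30, adjusted p 0.150) and DSW1200 minus TW 0.75 (adjusted p 0.617). *Selenbp1*, a selenium-binding protein that is no selenoprotein, lay at -0.45 in SeW against TW (adjusted p 0.295).

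Partners of the ER selenoproteins were a list of 14, of which 11 were tested and 0 passed in any comparison (at most 2.72% of all genes did). *Edem1*, which hands misfolded glycoproteins to ER-associated degradation, read 441 and 496 in SeW and 300 to 389 on the other 6 arrays. *Syvn1*, the ubiquitin ligase of that pathway, read 166 and 143 in SeW and 118 and 93.2 in TW. SeW minus TW was 0.52 for *Edem1* (adjusted p 0.133) and 0.55 for *Syvn1* (adjusted p 0.188), beside the 0.50 of *Selenos*. *Vcp*, the ATPase to which selenoprotein S binds, was at -0.14 (adjusted p 0.616) and the lectin *Os9* at -0.47 (adjusted p 0.400). Over the 11 the median was -0.001 (all genes -0.04).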

How the data were processed

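RNA of 8 samples was hybridised to 1 array each. The authors deposited one linear MAS5 intensity for every probe set and array, not logged. The MAS5 version and scaling target are not given in the sources used here. The study's methods name quantile normalization, but the deposited arrays have different medians, so they were normalized here (limma 3.58.1, R 4.3.3), floored at 1 and put on a log2 scale. 20826 of 31099 probe sets had 1 gene symbol, 436 had several and 9837 none. Symbols were updated through Entrez identifiers (20758), accessions (2) or kept as on the array (66). The brightest probe set stood for each gene, and the 9258 genes whose mean exceeded a signal of 6.69, the median over probe sets, entered the tests.

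One limma fit over 4 groups (4 residual degrees of freedom, intensity trend) gave 6 pairwise tests and an F test, Benjamini-Hochberg adjusted over all tested genes at 0.05. The median SE was 0.26 on the log2 scale, and the number of arrays limits precision. An exact permutation test of 2 against 2 arrays cannot go below p = 0.333, so none was used. Alternatives were the deposited scale, median scaling, 2 other filters, an offset of 32, the mean of probe sets, no trend, a replicate block, the beta-actin ratio, 4-array fits, a 2-fold rule and each array left out. Named genes were all 8 members, up to 4 genes a list by F-test p, the 5 genes most like *Selenop*, and for cell markers the brightest. The members and lists were chosen with earlier results of these data known. The deposited text files of the authors held no other columns. Goblet markers summed to 9441 to 13520, enteroendocrine 1000 to 1450, smooth muscle 51.6 to 86.4, pancreatic acinar 41.8 to 544 and Paneth 624 to 2117, with *Defa5* at the floor on all 8 arrays.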

Additional observations from a re-analysis of the deposited data

How the results depend on the processing

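Of 27 differences (6 each for *Selenop* and *Selenos*, 3 against TW for the other 5 genes) followed through 18 alternatives (486 values), 455 kept their direction and 31 turned, 12 of them with an array left out, and 7 newly passed an adjusted p of 0.05 in the same direction. 11 of the 27 kept their direction throughout. None of the 7 tested genes passed under any alternative other than the deposited scale and TW replicate 1 left out. As deposited, 6 passed in SeW against TW, 5 in SeW against DSW1200, 1 in SeW against WR and 3 in the F test. With arrays left out, the count ran from 0 to 1 in WR against TW, SeW against TW and the F test, and the 1 was *Selenop* without TW replicate 1. With 1 array in a group, that array is assumed to vary like the others.

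For *Selenop*, SeW against TW was 1.08 as deposited and 0.055 to 0.97 with arrays left out, and DSW1200 against TW -0.036 to 0.87. SeW against DSW1200 turned to -0.24 with median scaling and -0.21 with the mean of probe sets, SeW against WR to -0.025 with that mean (-0.17 to 0.25 with arrays left out), and DSW1200 against WR to 0.24 and 0.18 (-0.27 to 0.15). *Selenos* in SeW against TW was 1.45 as deposited.

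As deposited, WR against TW turned to 0.27 for *Selenok*, 0.18 for *Selenot* and 0.20 for *Selenom*, DSW1200 against TW to 0.004 for *Selenom*, and SeW against TW to 0.93 for *Selenok*, 0.78 for *Selenot*, 0.72 for *Selenom* and 0.75 for *Sephs2*, where the median gene rose by 0.92. Median scaling turned *Selenok* in SeW to 0.082 and *Selenof* to -0.10 in WR and -0.027 in DSW1200. The beta-actin ratio as a covariate turned *Selenof* to -0.027 and *Sephs2* to 0.077 in DSW1200 and *Selenom* to 0.10 in SeW. Leaving out arrays gave, against TW, -0.10 to 0.01 in WR and -0.048 to 0.005 in SeW for *Selenok*, -0.014 to 0.11 in DSW1200 for *Selenof*, -0.004 to 0.20 in DSW1200 for *Selenot*, -0.14 to 0.029 in DSW1200 and -0.61 to 0.13 in SeW for *Selenom*, and -0.39 to 0.15 in DSW1200 and -0.47 to 0.071 in SeW for *Sephs2*. The cause of these turns was not tested.

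Replicate numbers did not pair the arrays (r of deviations between groups -0.06 to 0.04). With the replicate block, *Selenop* in SeW against TW kept 0.52 (adjusted p 0.217), no member passed, and 114 rather than 177 genes passed in that comparison. Over all genes that count was 12 with no filter, 270 with the stricter one, 64 with the mean of probe sets, 1 without trend, 42 with median scaling, 26 in the 4-array fit, 0 with the beta-actin covariate (803 at an unadjusted p under 0.05) and 4380 as deposited, of which 5 were lower against 103 of the 177, and it ran from 1 to 528 with arrays left out. Signals near the floor, *Selenow* and the dimmer *Selenop* probe set among them, limit what can be said.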
